A study of Macaca mulatta with 28 samples.

Results

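The transcripts of SNCB, SNCG, PINK1, PARK7, LRRK2, VPS35, UCHL1 and ATP13A2 were described in punches of the ventral tegmental area (VTA), from whose dopamine neurons the mesolimbic projection arises. They were found by gene symbol in the deposited table, and the 8 of them were among 16885 symbols in all. All 8 passed the count filter of at least 5 counts in at least 3 animals, as did 13769 transcripts in total. The tissue came from 28 male rhesus macaques of wild-type genotype, with 1 library of a bulk tissue punch per animal. The drinkers (17 animals) had self-administered ethanol, and the labels place 1 of them in the low, 2 in the binge, 5 in the heavy and 9 in the very heavy category. The controls (11 animals) were calorically yoked or housing controls without ethanol, and the labels give 30 days of abstinence at the end of the protocol. The animals were studied in 2 cohorts, the first with 8 controls beside 8 drinkers and the second with only 3 controls beside 9 drinkers. Very heavy drinkers made up 3 of the drinkers of cohort 1 and 6 of those of cohort 2, so drinking category and cohort were not balanced.

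Synucleins are small presynaptic proteins that bind membrane lipids. SNCB encodes beta-synuclein and SNCG gamma-synuclein, close relatives within this family. The other 6 genes have been linked to inherited forms of Parkinson disease and fall into steps that keep neurons clear of damaged parts. PINK1 is a kinase that flags damaged mitochondria, and PARK7 encodes DJ-1, a protein of the response to oxidative stress. LRRK2 is a kinase of Rab proteins and VPS35 a core subunit of the retromer, which returns cargo from endosomes. UCHL1 is an abundant neuronal ubiquitin hydrolase, and ATP13A2 is a lysosomal pump that exports polyamines. Dopamine neurons of the midbrain are the cells whose loss causes the motor signs of the disease, and tyrosine hydroxylase (TH), the enzyme that starts dopamine synthesis, marks them.

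In the RefSeq annotation of the macaque build Mmul_10, SNCB lies on chromosome 6 from 174078701 to 174088986 and SNCG on chromosome 9 from 51065418 to 51071004, both on the minus strand. PINK1 (chromosome 1, 204064775 to 204082118) and PARK7 (chromosome 1, 216533852 to 216558559) are also on the minus strand, and ATP13A2 lies on the plus strand of the same chromosome, from 207752376 to 207779544. LRRK2 spans chromosome 11 from 39533177 to 39678644 on the plus strand, with up to 52 exons. VPS35 spans chromosome 20 from 33730852 to 33762224 on the minus strand, and UCHL1 spans chromosome 5 from 40423645 to 40435054 on the plus strand. The 250 bases upstream of the annotated start are printed for the pair of synucleins, whose levels lay far apart, and for VPS35 and UCHL1, the pair of the 8 whose levels moved together most closely. Sequences run from 5′ to 3′ on the strand of the gene, and capitals mark the CCAAT box on either strand (CCAAT or ATTGG). The windows are chr6:174088987-174089236 (minus strand), chr9:51071005-51071254 (minus), chr20:33762225-33762474 (minus) and chr5:40423395-40423644 (plus).
SNCB: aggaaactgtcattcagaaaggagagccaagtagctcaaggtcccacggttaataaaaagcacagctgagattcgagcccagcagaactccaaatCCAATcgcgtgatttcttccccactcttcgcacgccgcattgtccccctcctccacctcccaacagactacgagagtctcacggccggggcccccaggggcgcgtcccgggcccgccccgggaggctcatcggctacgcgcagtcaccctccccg
SNCG: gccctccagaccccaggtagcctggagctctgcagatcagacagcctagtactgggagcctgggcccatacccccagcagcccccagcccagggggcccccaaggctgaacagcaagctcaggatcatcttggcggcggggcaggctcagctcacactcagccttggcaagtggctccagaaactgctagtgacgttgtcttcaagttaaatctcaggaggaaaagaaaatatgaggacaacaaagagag
VPS35: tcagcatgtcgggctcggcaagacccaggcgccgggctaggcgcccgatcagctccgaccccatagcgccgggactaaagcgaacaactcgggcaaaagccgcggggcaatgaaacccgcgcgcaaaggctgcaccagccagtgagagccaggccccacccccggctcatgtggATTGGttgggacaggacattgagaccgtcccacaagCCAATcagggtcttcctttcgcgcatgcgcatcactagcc
UCHL1: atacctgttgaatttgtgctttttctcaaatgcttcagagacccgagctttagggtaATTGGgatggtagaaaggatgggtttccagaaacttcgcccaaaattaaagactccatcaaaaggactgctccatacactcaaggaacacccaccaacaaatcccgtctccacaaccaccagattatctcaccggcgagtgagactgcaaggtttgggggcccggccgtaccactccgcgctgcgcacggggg

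The CCAAT box was found in the windows of 4 of the 8 genes, SNCB, VPS35, UCHL1 and ATP13A2, against 31% of 20782 windows over the annotation. VPS35 held 2 copies, 1 on each strand, and the SNCG window held none. The GC box (GGGCGG on either strand) was found in SNCB, PINK1, LRRK2 and ATP13A2, against 43.7% of all windows. Neither TATAAA (9.85% of windows) nor the E-box CACGTG (6.45%) was found in any of the 8 on either strand. None of these 4 motifs holds another. The SNCG window had 3 CpG dinucleotides, and 23.3% of all windows had as few or fewer, whereas the other 7 genes had between 11 and 28. These matches describe letters in a fixed window, and no binding was measured.

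Total counts ranged from 12303914 to 27338669 per animal, with a median of 22020291, and transcripts of the mitochondrial genome made up between 36.4% and 60.6% of them. Levels are given as CPM, the counts of a transcript for each 1000000 counts of its library after TMM scaling (trimmed mean of M-values). All 10 dopamine neuron markers of a fixed list had counts, and TH ranged from 5.58 to 826 CPM with a median of 93.1 CPM, a 148-fold spread between punches. On the log2 scale the TH levels filled their range from 2.50 to 9.69 without falling into clusters, and the widest gap between neighbouring animals was 0.75. TH had a median of 77.6 CPM in drinkers (5.58 to 712) and 115 CPM in controls (5.81 to 826). SLC6A3, the dopamine transporter, had medians of 71.4 and 75.8 CPM, and the 10 markers summed, without TMM scaling, 220 and 201 CPM. The median log2 fold change of the 10 in drinkers was -0.35. The edgeR test described below called 0 of the 10 at an adjusted p under 0.05 (0% of all transcripts). In bulk tissue, fewer cells of a type and less RNA per cell cannot be told apart. Astrocyte, microglial, endothelial and oligodendrocyte markers were present, although the astrocyte marker SLC1A2 had no count in any animal and MAG and C1QA were not matched in the table. Of the 5 astrocyte markers 3 passed the filter. The summed median of the 5 was only 57.3 CPM, beside 16606 CPM for the 5 matched oligodendrocyte markers, and the reason was not tested. No library was a repeat of another.

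UCHL1 was the most abundant of the 8 transcripts, with a lowest level of 394 CPM, a median of 655 CPM and a highest of 1218 CPM over the 28 animals. PINK1 (296, 390.1 and 505 CPM) and SNCB (185, 363 and 505 CPM) followed, then VPS35 (149, 191 and 280 CPM for lowest, median and highest) and PARK7 (87.6, 117 and 141 CPM). ATP13A2 lay between 8.83 and 48.0 CPM with a median of 25.2 CPM, and SNCG between 5.77 and 54.6 CPM with a median of 13.4 CPM. LRRK2 was the least abundant, with a median of 7.90 CPM.

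Since longer transcripts yield more reads, levels of different genes were compared per kilobase of the longest and the shortest RefSeq mRNA. The median level of UCHL1 was 545 CPM per kilobase, and that of SNCB lay between 279 and 468 CPM per kilobase. PINK1 followed with 158 to 171, PARK7 with 94.7 to 132 and VPS35 with 56.3 to 57.8 CPM per kilobase. SNCG reached 14.8 to 19.2, ATP13A2 6.27 to 6.85 and LRRK2 0.917 to 1.17 CPM per kilobase. The median of TH on the same scale was 48.8 to 49.0 CPM per kilobase, between VPS35 and SNCG. With the longest mRNA for the higher and the shortest for the lower gene of each neighbouring pair, UCHL1 exceeded SNCB in 21 of 28 animals, the least uniform step of the order. SNCB exceeded PINK1 in 27, PINK1 exceeded PARK7 in 25, VPS35 exceeded SNCG in 27 and SNCG exceeded ATP13A2 in 26 animals. PARK7 lay above VPS35, and ATP13A2 above LRRK2, in each of the 28. The mRNA behind each deposited count may differ in length from those in RefSeq.

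The spread between animals separated the transcripts into steady and variable ones. PARK7 and PINK1 were the steadiest, with coefficients of variation of 13.0% and 13.6%, and VPS35 had 14.6%. The median over the transcripts with a count in every animal was 23.1%, and 11.7%, 13.9% and 17.4% of them varied as little as or less than PARK7, PINK1 and VPS35, respectively. SNCB varied by 20.6%, ATP13A2 by 31.9% and UCHL1 by 32.4%. SNCG varied by 60.5%, and 96.1% of the transcripts had the same or a lower coefficient, while 43.9% had the same or a lower mean level. LRRK2, with its 8 animals at 0, had the highest coefficient of the 8, 88.8%, and has no place in this ranking.

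**Figure D1:**
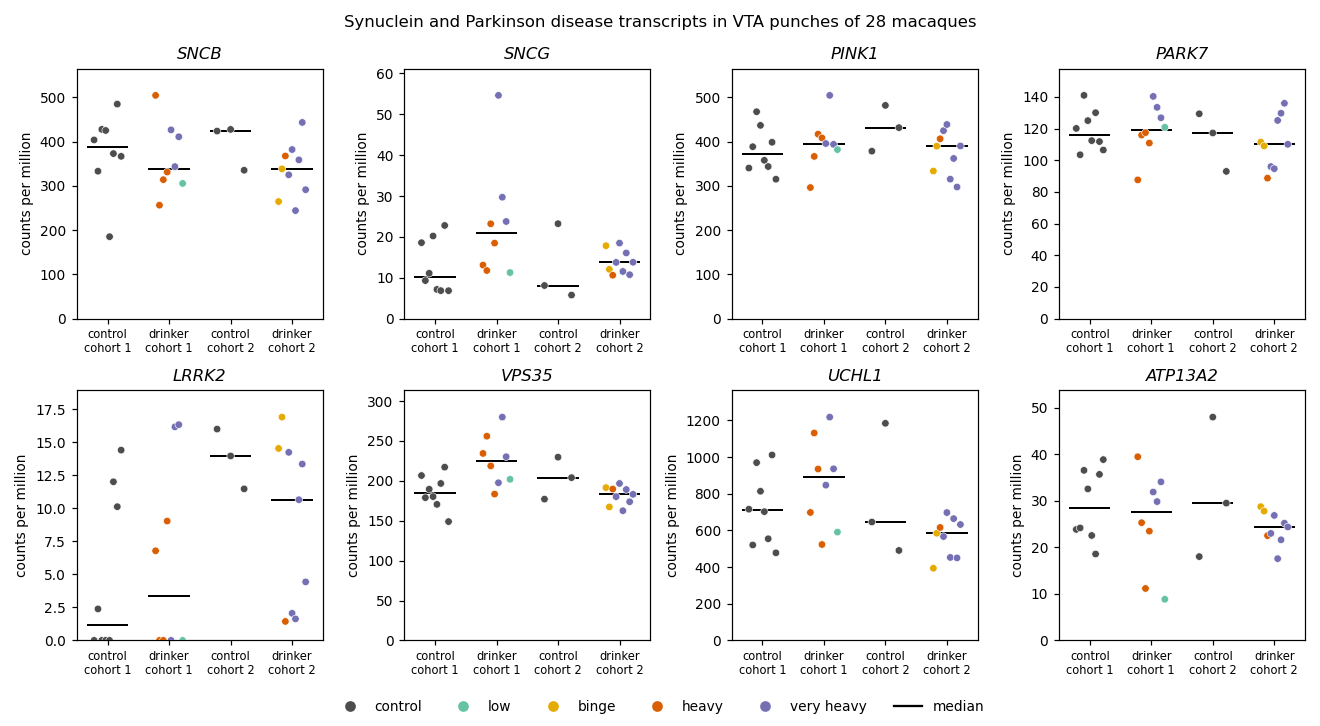
Level of each transcript in CPM (y axis, from 0) in each animal, by cohort and drinking history (x axis). Points are animals coloured by drinking category and horizontal lines are group medians. By their medians, VPS35, UCHL1, PINK1, PARK7 and LRRK2 lay higher in drinkers than in controls in cohort 1 and lower in cohort 2. LRRK2 was listed at 0 in 8 animals, all of cohort 1.

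The LRRK2 transcript was listed at 0 in 8 of 28 animals, at 32 or more but fewer than 100 counts in 4 and at 100 to 371 counts in 16. A count of 0 allows up to 3 counts, which is 0.118 to 0.238 CPM in these 8 libraries. The 8 animals at 0 were 4 drinkers and 4 controls, and all were of cohort 1, while in cohort 2 the lowest level was 1.43 CPM. The table carries 1 transcript identifier per gene symbol, and how the estimation shared LRRK2 reads among transcripts was not tested. Fold changes of LRRK2 over all animals or within cohort 1 compare groups that include animals at 0.

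The first comparison asked whether the transcripts differed between drinkers and controls after abstinence. Differences were tested by edgeR's quasi-likelihood test over 13769 transcripts with Benjamini-Hochberg adjustment, and 0 of the 8 passed an adjusted p of 0.05, where 0% of all transcripts did. At an unadjusted p under 0.05 the test also held 0 of the 8, against 4.57% of all transcripts, and 0 of the 8 passed the adjusted threshold by DESeq2 or limma-voom. This unadjusted count depends on the fit, since SNCG had a log2 fold change of 0.60 with cohort as a covariate (SE 0.266, edgeR p = 0.0334, adjusted p = 0.652) and of 0.55 by limma-voom (SE 0.258, p = 0.0398, adjusted p = 0.876). Of 13769 transcripts, 972 had an unadjusted p under 0.05 with the covariate and 733 by limma-voom. In cohort 1 alone, SNCG (edgeR p = 0.0310, adjusted p = 0.354) and VPS35 (edgeR p = 0.00986, adjusted p = 0.272) were under that threshold, as were 1600 of the transcripts.

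Among the synucleins, SNCG ranged from 10.6 CPM through a median of 13.8 CPM to 54.6 CPM in drinkers and from 5.77 CPM through 9.31 CPM to 23.2 CPM in controls. The groups overlapped, with 6 of 11 controls below every drinker and 3 of 17 drinkers above every control. Its log2 fold change was 0.52 (SE 0.274, p = 0.067 from edgeR, adjusted p = 1.0), the largest of the 8, and 0.33 (SE 0.235) without the very heavy drinker with the highest level. SNCB ranged from 244 through 339 to 505 CPM in drinkers and from 185 through 404 to 485 CPM in controls. The SNCB groups overlapped over nearly their whole range, with a log2 fold change of -0.13 (SE 0.116, edgeR adjusted p = 1.0).

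Of the mitochondrial genes, PINK1 ranged from 296 through 390.3 to 505 CPM in drinkers and from 315 through 389 to 482 CPM in controls, with a log2 fold change of -0.04 (SE 0.0770). PARK7 ranged from 87.6 through 116 to 140.3 CPM in drinkers and from 93.0 through 117 to 141 CPM in controls, with a log2 fold change of -0.03 (SE 0.0748). Both groups of each gene covered almost the same interval. In the retromer and kinase pair, VPS35 ranged from 163 through 192 to 279.9 CPM in drinkers and from 149 through 189.5 to 229.7 CPM in controls (log2 fold change 0.08, SE 0.0782). LRRK2 was at 0 in 4 of 17 drinkers and 4 of 11 controls, with a log2 fold change of 0.04 and an SE of 0.928. By limma-voom it was 0.76 (SE 1.56), and in cohorts 1 and 2 alone 0.31 (SE 1.56) and -0.64 (SE 0.682).

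UCHL1 ranged from 394 through 632 to 1218 CPM in drinkers and from 478 through 702 to 1184 CPM in controls, and its log2 fold change was -0.07 (SE 0.171). ATP13A2 ranged from 8.83 through 25.2 to 39.4 CPM in drinkers and from 18.0 through 29.5 to 48.0 CPM in controls. For ATP13A2, 3 of 17 drinkers lay below every control and 1 control above every drinker, and the log2 fold change was -0.27 (SE 0.179). The 3 animals below every control were the drinker of the low category (8.83 CPM) and heavy drinker 3 (11.2 CPM), both of cohort 1, and very heavy drinker 6 of cohort 2 (17.6 CPM, beside 18.0 CPM in the lowest control). Within cohorts 1 and 2 taken alone, the log2 fold changes were 0.85 (SE 0.362) and 0.18 (SE 0.341) for SNCG, -0.05 and -0.23 for SNCB, 0.06 and -0.20 for PINK1, 0.01 and -0.02 for PARK7 and -0.19 and -0.39 for ATP13A2, and none passed the adjusted threshold in either cohort.

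The categories of drinking were compared in a fit with 5 category means, testing whether controls, heavy and very heavy drinkers differed. In edgeR's test 0 of the 8 passed an adjusted p of 0.05, where 0% of all transcripts did, 0 passed an unadjusted p of 0.05 (6.22% of all transcripts) and 0 passed the adjusted threshold in DESeq2's likelihood ratio test. With cohort as a covariate, SNCG (edgeR p = 0.0191, adjusted p = 0.585) and PARK7 (edgeR p = 0.0340, adjusted p = 0.656) were under the unadjusted threshold of the category test, as were 1004 of 13769 transcripts. In very heavy drinkers against controls 0 of the 8 passed the adjusted threshold by edgeR or DESeq2 (0% of all transcripts in edgeR), and 1 of the 8, SNCG, had an unadjusted p under 0.05, against 4.62% of all transcripts. SNCG ranged from 10.8 through 16.1 to 54.6 CPM in the 9 very heavy drinkers, with a log2 fold change of 0.75 over controls (SE 0.315, edgeR p = 0.0251, adjusted p = 0.912). Without very heavy drinker 1, the animal at 54.6 CPM, the log2 fold change was 0.44 (SE 0.286, edgeR p = 0.139, adjusted p = 1.0), and with cohort as a covariate and all animals it was 0.87 (SE 0.294, edgeR p = 0.00649, adjusted p = 0.559). The other 7 transcripts had log2 fold changes between -0.20 (ATP13A2) and 0.26 (LRRK2) in this contrast.

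In the 5 heavy drinkers SNCG measured 13.1, 11.8, 23.2, 18.5 and 10.6 CPM in animals 1 to 5. Each lay within the range of the controls, and the log2 fold change was 0.28 (SE 0.375), or 0.09 (SE 0.408) without heavy drinker 3. PARK7 measured 87.6, 116, 117, 111 and 88.7 CPM in the same animals, with 2 of them below every control and a log2 fold change of -0.17 (SE 0.102, edgeR adjusted p = 0.825), or -0.10 (SE 0.108) without heavy drinker 1. VPS35 measured 234, 256, 219, 183 and 189.8 CPM (log2 fold change 0.18, SE 0.108, edgeR adjusted p = 0.830). In heavy drinkers against controls 0 of the 8 passed the adjusted threshold by edgeR or DESeq2 (0% of all transcripts in edgeR) and 0 the unadjusted one (7.15% of all transcripts). ATP13A2 had a log2 fold change of -0.29 (SE 0.229), which was -0.52 without heavy drinker 1 (SE 0.232, edgeR p = 0.0335, adjusted p = 0.823) and -0.11 without heavy drinker 3 (SE 0.217). The 2 binge drinkers had 17.8 and 12.1 CPM of SNCG and 14.5 and 16.9 CPM of LRRK2, and the low drinker 11.3 and 0 CPM, and these categories were not compared with the controls.

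Cohorts were compared with drinking history as a covariate, and 0 of the 8 passed an adjusted p of 0.05 by edgeR or DESeq2 (0.0436% of all transcripts in edgeR). At an unadjusted p under 0.05 there were 2 of the 8, UCHL1 and VPS35, against 9.8% of all transcripts. UCHL1 had a median of 765 CPM in the 16 animals of cohort 1 and 600.2 CPM in the 12 of cohort 2, with ranges of 478 to 1218 and 394 to 1184 CPM. The log2 difference of cohort 2 from cohort 1 was -0.36 (SE 0.161, edgeR p = 0.0339, adjusted p = 0.446). VPS35 had medians of 199.8 and 186 CPM and a log2 difference of -0.16 (SE 0.0740, edgeR p = 0.0426, adjusted p = 0.483). The 6 tested pan-neuronal markers had a median log2 difference of -0.54, beside 0.02 over all transcripts. With their level as a covariate, chosen after seeing the data, the difference was -0.38 (SE 0.152) for UCHL1 and -0.16 (SE 0.0671) for VPS35. In the 17 drinkers alone the log2 difference was -0.62 for UCHL1 (SE 0.165, edgeR p = 0.0015, adjusted p = 0.0784) and -0.31 for VPS35 (SE 0.0773, edgeR p = 0.00073, adjusted p = 0.0633). Among drinkers, 1972 of 13769 transcripts had an unadjusted p under 0.05 and 104 passed the adjusted threshold. In the 11 controls alone, 3 of them of cohort 2, the log2 difference was of opposite sign, 0.10 for UCHL1 (SE 0.291) and 0.12 for VPS35 (SE 0.119). SNCG had medians of 15.8 and 12.9 CPM and a log2 difference of -0.50 (SE 0.261, edgeR adjusted p = 0.544), which was -0.30 (SE 0.235) without very heavy drinker 1 and -0.74 (SE 0.271, edgeR adjusted p = 0.184) in drinkers alone. Without control 10 the difference was -0.78 for SNCG (SE 0.253, edgeR p = 0.00454, adjusted p = 0.157) and -0.54 for UCHL1 (SE 0.147, edgeR p = 0.00104, adjusted p = 0.107). In that refit 1644 of 13769 transcripts had an unadjusted p under 0.05. The unadjusted count of 2 depends on the fit. UCHL1 had an edgeR p of 0.0594 without control 11, and VPS35 had 0.0551 without control 9 and 0.0758 without the covariate. The remaining transcripts lay within 0.09 of equal levels on the log2 scale apart from LRRK2 (0.89, SE 0.916). All 8 zeros of LRRK2 fell in the cohort with the lower level.

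Whether the difference between drinkers and controls was the same in both cohorts was tested as an interaction, in which cohort 2 contributes 3 controls. In this test 0 of the 8 passed an adjusted p of 0.05 by edgeR or DESeq2 (0.0145% of all transcripts in edgeR), and 2 of the 8, VPS35 and UCHL1, had an unadjusted p under 0.05, against 9.62% of all transcripts. VPS35 in cohort 1 ranged from 183 through 224 to 279.9 CPM in drinkers and from 149 through 185 to 217 CPM in controls, and 5 of 8 drinkers lay above every control. In cohort 2 VPS35 ranged from 163 through 183 to 197 CPM in drinkers, and the 3 controls (replicates 9, 10 and 11) had 177, 229.7 and 204 CPM. So 3 of 9 drinkers of cohort 2 lay below every control and 2 of 3 controls above every drinker. The log2 fold change of VPS35 was 0.28 (SE 0.0954) within cohort 1 and -0.16 (SE 0.0851) within cohort 2, and the interaction was -0.44 (SE 0.135, edgeR p = 0.00289, adjusted p = 0.279). DESeq2's Wald test gave -0.46 with an adjusted p of 0.0818.

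UCHL1 drinkers also had the higher median in cohort 1 and the lower one in cohort 2, and so did drinkers for PINK1, PARK7 and LRRK2. In cohort 1 UCHL1 ranged from 523 through 891 to 1218 CPM in drinkers and from 478 through 709 to 1011.5 CPM in controls. In cohort 2 it ranged from 394 through 584 to 697 CPM in drinkers, and controls 9, 10 and 11 had 646, 1184 and 490.5 CPM. In cohort 1, 2 of 8 drinkers lay above every control and 2 of 8 controls below every drinker, and in cohort 2, 3 of 9 drinkers lay below every control and 1 of 3 controls, control 10, above every drinker. The interaction was -0.72 (SE 0.318, edgeR p = 0.0329, adjusted p = 0.470). Without control 10 it was -0.28 (SE 0.328), while that of VPS35 without the same animal was -0.35 (SE 0.150). Without control 9 the interactions were -0.83 for UCHL1 (SE 0.353) and -0.53 for VPS35 (SE 0.145), and without control 11 they were -0.95 (SE 0.335) and -0.44 (SE 0.155), with edgeR adjusted p-values of 0.325 to 0.521 in these refits. With the level of pan-neuronal markers as a covariate, an alternative chosen after seeing the data, the interactions were -0.37 (SE 0.129) for VPS35 and -0.58 (SE 0.318) for UCHL1. The summed pan-neuronal markers, in CPM without TMM scaling, stood in the same order. Their medians were 8583 CPM in drinkers (3095 to 18542) and 4305 CPM in controls (2129 to 7676) of cohort 1. In cohort 2 they were 3644 CPM in drinkers (2862 to 4689) and 7453 CPM in controls (4302 to 8629). The interaction over the 6 tested pan-neuronal markers had a median of -1.11, beside 0.04 over all transcripts, with 0 at an adjusted and 3 at an unadjusted p under 0.05 by edgeR. The interaction of SNCG was -0.69 (SE 0.544), and it was 0.14 without control 10, whose SNCG level of 23.2 CPM was the highest among controls.

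**Figure D2:**
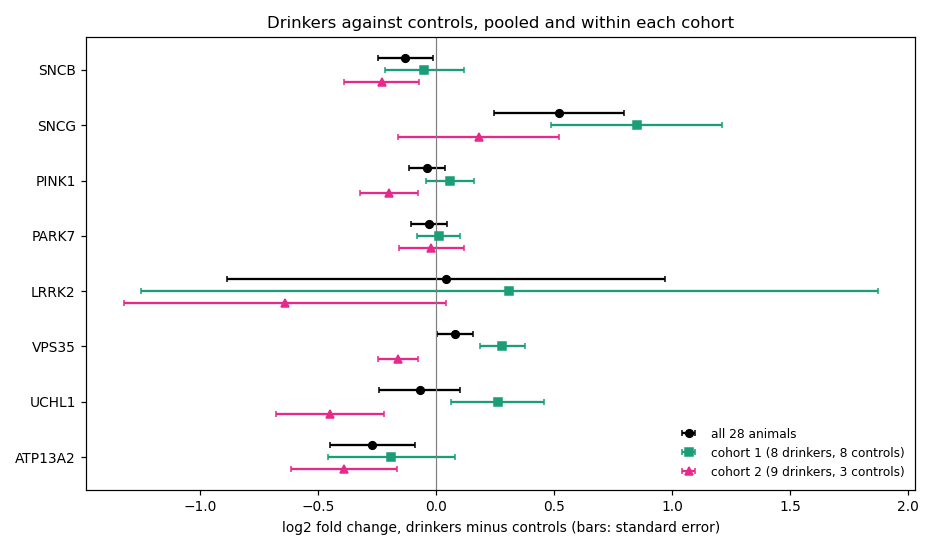
Log2 fold change of drinkers over controls (x axis) for each transcript (y axis) in all 28 animals (circles), cohort 1 (squares) and cohort 2 (triangles), with bars of 1 standard error. VPS35 and UCHL1 had changes of opposite sign in the cohorts, 0.28 against -0.16 and 0.26 against -0.45. So did LRRK2 (0.31 against -0.64), PINK1 (0.06 against -0.20) and PARK7 (0.01 against -0.02), and no interaction passed the adjusted threshold.

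The relation with TH asked whether the transcripts followed the dopamine neuron content of a punch. Each transcript's log2 level was regressed on the log2 CPM of TH by edgeR over 13768 transcripts, and 0 of the 8 had a slope at an adjusted p under 0.05, where 0.567% of all transcripts did. At an unadjusted p under 0.05 there were also 0 of the 8, against 6.16% of all transcripts, and DESeq2 called 0. The slope of UCHL1 was 0.04 (SE 0.0353), and in the 12 animals of cohort 2 alone it was 0.12 (SE 0.0539, edgeR p = 0.0461, adjusted p = 0.809), where 823 of 13768 transcripts had an unadjusted p under 0.05. By comparison 7 of 9 other dopamine neuron markers had a positive slope at an adjusted p under 0.05, among them SLC6A3, the dopamine transporter, and DDC, which completes dopamine synthesis. The slopes of the 8 lay between -0.08 (SNCG, SE 0.0624) and 0.15 (LRRK2, SE 0.241) log2 units for each log2 unit of TH, with adjusted p-values of 0.974 to 1.0. PINK1 had a slope of 0.01 (SE 0.0168) and VPS35 of -0.01 (SE 0.0173), and PARK7 (0.01, SE 0.0163) and SNCB (-0.02, SE 0.0261) had slopes of similar size.

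As correlations over the 28 animals, of which 8 were computed, Pearson's r with TH on the log2 CPM scale was highest for ATP13A2. ATP13A2 had an r of 0.273 (permutation p = 0.159) and Spearman's rho of 0.245 (permutation p = 0.208). Without the 2 animals farthest from the median TH level its r was 0.140, and within cohorts 1 and 2 it was 0.307 and 0.162. UCHL1 followed with an r of 0.218 (permutation p = 0.266) and rho of 0.227 (permutation p = 0.242), and its r was 0.270 without the 2 farthest animals. Within cohort 2 the r of UCHL1 was 0.533 (permutation p = 0.068, 12 animals) and within cohort 1 it was 0.111.

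PARK7 (r = 0.158, rho = 0.118, permutation p = 0.424 and 0.549) and PINK1 (r = 0.0950, rho = 0.0301, permutation p = 0.63 and 0.88) had low positive coefficients, with r of 0.135 and 0.161 without the 2 farthest animals. LRRK2 had an r of 0.0180 (rho = 0.0988, permutation p = 0.927 and 0.613), and -0.0957 without those animals. The synucleins had negative coefficients, SNCB of -0.180 (rho = -0.0925, permutation p = 0.361 and 0.639) and SNCG of -0.172 (rho = -0.139, permutation p = 0.382 and 0.478). Without the 2 farthest animals these were -0.267 and -0.187, and within cohorts 1 and 2 they were -0.298 and 0.136 for SNCB and -0.298 and 0.221 for SNCG. VPS35 had an r of -0.0911 (rho = -0.179, permutation p = 0.649 and 0.358), -0.0935 without the 2 farthest animals, and -0.139 and 0.0683 within the cohorts. PARK7 had 0.0749 and 0.338, PINK1 0.0200 and 0.248, and LRRK2 -0.0714 and 0.470 within cohorts 1 and 2. Over the transcripts with a count in every animal, the central 95% of r with TH ran from -0.402 to 0.442, and each of the 8 lay inside it.

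The further Parkinson disease genes formed 5 lists of 34 symbols, of which 32 were in the table and 30 passed the filter. In drinkers against controls 0 of 30 passed the adjusted threshold of the edgeR test (0% of all transcripts) and 0 the unadjusted one (4.57%). Among the 6 tested genes of mitochondrial quality control 0 had a slope on TH at an adjusted p under 0.05 by edgeR (0.567% of all transcripts). The lowest p-values were those of CHCHD2, a protein of the intermembrane space (slope -0.02, SE 0.0176), and TOMM20, an import receptor of the outer membrane (0.01, SE 0.0126). TOMM40, the import pore of the outer membrane (log2 fold change -0.11, SE 0.0817), and HTRA2, a mitochondrial protease (-0.61, SE 0.523), had the lowest p-values between drinkers and controls. HTRA2 had a median of only 1.75 CPM, with 2 animals at 0. The median log2 fold change of these 6 was -0.01, beside 0.00 over all transcripts.

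Of 9 genes of the retromer and of Rab traffic, 0 followed TH past the adjusted threshold (0.567% of all transcripts). RAB39B (slope -0.03, SE 0.0137, edgeR p = 0.0441, adjusted p = 0.784) and VPS13C (-0.03, SE 0.0280) were lowest in p. RAB39B was the 1 of the 9 at an unadjusted p under 0.05, against 6.16% of all transcripts. VPS29, which binds VPS35 in the retromer, had a log2 fold change of 0.12 in drinkers (SE 0.0718), and RAB12, a substrate of LRRK2, 0.13 (SE 0.0911). Of 7 lysosomal genes 0 followed TH past the adjusted threshold (0.567% of all transcripts). CTSD, the protease cathepsin D (slope 0.06, SE 0.0299, edgeR p = 0.049, adjusted p = 0.808), and SCARB2, a lysosomal membrane receptor (-0.02, SE 0.0158), were lowest in p. CTSD was the 1 of the 7 at an unadjusted p under 0.05, again against 6.16% of all transcripts. SMPD1, acid sphingomyelinase, had a log2 fold change of -0.09 (SE 0.0657) and SCARB2 of 0.08 (SE 0.0730). Both tested genes of synaptic vesicle uncoating, DNAJC6 (auxilin) and SYNJ1 (synaptojanin), were uncalled, with slopes of 0.08 (SE 0.0666) and 0.01 (SE 0.0236) and log2 fold changes of -0.25 (SE 0.320) and 0.07 (SE 0.106). DNAJC6 had a median of only 3.79 CPM. In the last list GCH1, which makes the cofactor of TH, had a slope of 0.25 (SE 0.0662, edgeR adjusted p = 0.0995). Its level was low, between 0.187 and 4.77 CPM with a median of 1.25 CPM. EIF4G1, a translation initiation factor, had a slope of 0.05 (SE 0.0427) and a log2 fold change of -0.28 in drinkers (SE 0.198).

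The transcripts were also compared with each other across the 28 animals, which share the library, its depth and its tissue composition. Of the 28 pairs, VPS35 and UCHL1 had the highest Pearson's r of log2 CPM, 0.724, followed by PINK1 and UCHL1 with 0.581 and SNCG and UCHL1 with 0.544. Over the 21 pairs of transcripts with a count in every animal the mean r was 0.275, and over all pairs of transcripts with a count in every animal it was 0.00274. VPS35 and UCHL1 had an r of 0.739 in cohort 1 and 0.623 in cohort 2, and of 0.841 in drinkers and 0.593 in controls. Without the 2 animals farthest from the median of VPS35 their r was 0.613. SNCG and UCHL1 had an r of 0.814 in the 11 controls and 0.490 in the 17 drinkers, and the difference was not tested. PARK7 had r between -0.223 and 0.305 to the other 7, and LRRK2 between -0.316 (UCHL1, the lowest of all pairs) and 0.318 (ATP13A2). The pairs were singled out for their coefficients, which are therefore given without a test.

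**Figure D3:**
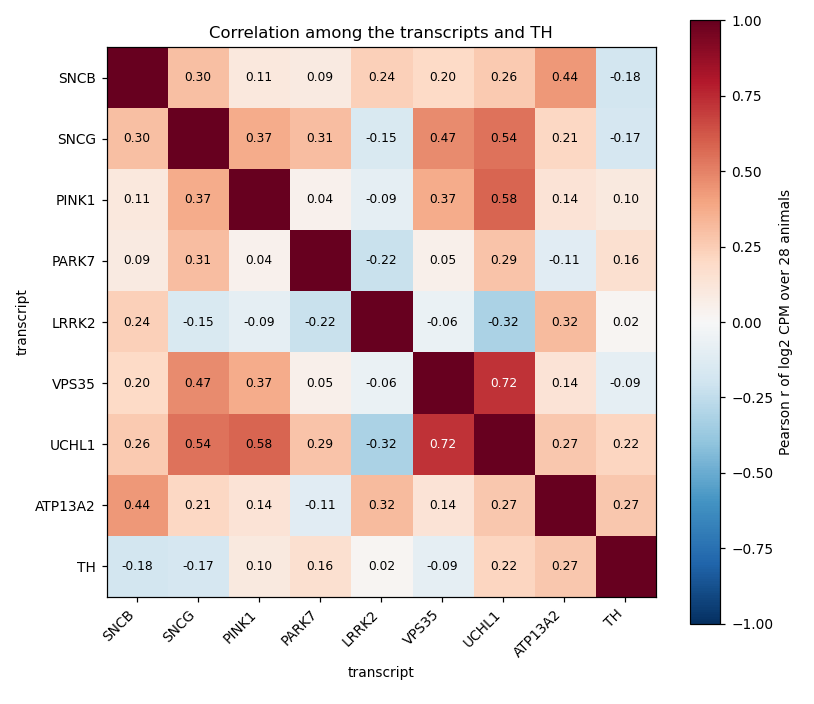
Pearson's r of log2 CPM over 28 animals for each pair of the 8 transcripts and TH (both axes), from -1 in blue to 1 in red. UCHL1 had r of 0.72 with VPS35, 0.58 with PINK1 and 0.54 with SNCG, and the TH row stayed between -0.18 and 0.27.

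Each transcript's nearest transcripts were taken as the 3 with the highest r over the 28 animals among those with a count in every animal. SNCG was nearest to NDUFA1 (0.787), NDUFA12 (0.775) and NDUFB1 (0.756), which all encode subunits of mitochondrial complex I. UCHL1 was nearest to PARP6 (0.901), PCMT1 (0.880) and ACOT7 (0.873), and VPS35 to SMS (0.868), PPP4R4 (0.863) and PCMT1 (0.854), so PCMT1, which repairs aged proteins, was among the nearest of both. SNCB was nearest to CACNG7 (0.868), a subunit of receptor and channel complexes at synapses, ANKRD34A (0.861) and CHMP4B (0.835), an ESCRT subunit. PINK1 was nearest to TMEM163 (0.762), RTCB (0.739) and MDH2 (0.736), the mitochondrial malate dehydrogenase. ATP13A2 was nearest to P2RX5 (0.756), SEPTIN5 (0.730) and CDH8 (0.719), PARK7 to BIN3 (0.703), UPF3B (0.678) and C10H22orf23 (0.644), and LRRK2 to PWP1 (0.679), EPN2 (0.648) and DIS3 (0.642). Of the nearest transcripts of the 8, none was TH or another of the 8.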

How the data were processed

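RNA from VTA punches was sequenced in 28 macaques (Nugen Universal Plus mRNA libraries). Per the labels, the submitters' processing notes name Trim Galore 0.6.7, Salmon 1.9.0 and DESeq2 1.36.0, and the authors quantified reads against Mmul_10. The deposited table holds estimated counts without normalization, 1 column per animal and 1 transcript identifier per gene symbol, so a gene's other transcripts do not add to its value. Of 16886 entries, 1 without a symbol (1.16e-05% of counts) was left out. Estimated counts were rounded, and a filter of 5 or more counts in 3 or more animals left 13769 transcripts.

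Groups came from the labels' drinking phenotype and cohorts from the paper's source data. Animals were numbered within a group in accession order. Tests used edgeR 4.0.16 (TMM, quasi-likelihood F test, Benjamini-Hochberg adjustment over all tested transcripts at 0.05) in R 4.3.3, with the standard error taken as the log2 change divided by the square root of F. CPM were computed on TMM-scaled library sizes, and log2 CPM with a prior count of 2. The sums of cell type markers and the levels without mitochondrial transcripts were scaled to total counts without TMM. Correlations used 100000 two-sided permutations of animals, with unadjusted p. The alternatives were DESeq2 1.42.0, limma-voom 3.58.1, other size factors, no filter, cohort or drinking history as covariates, each cohort or group alone, variance stabilization, CPM without mitochondrial transcripts, other markers in place of TH, and leaving out single animals. Alternatives with pan-neuronal markers in place of TH or as a covariate of cohort and interaction, and without the very heavy drinker with the highest SNCG level, were chosen after seeing the data. The edgeR fits were also run on simulated counts, and those results are not given here. Upstream windows and mRNA lengths came from RefSeq on Mmul_10, and 8 of 8 genes matched by symbol.

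The genes and lists were chosen with earlier results of these data known. Named genes are the 8, TH, the 2 genes of each further Parkinson list with the lowest p in the slope on TH and in drinkers against controls, and the 3 transcripts nearest to each of the 8. Some genes of the further Parkinson lists, among them genes that this rule selects, are not reported here, and those removed from a list are not in its size or counts. Precision is limited by 3 controls in cohort 2, and limits from counts cover counting error only.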

Additional observations from a re-analysis of the deposited data

Results flagged for a closer look

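SNCG in very heavy drinker 1, at 54.6 CPM, stood apart from the other animals of its group, where the next highest of the 9 very heavy drinkers had 29.7 CPM. The gap to that animal was 0.568 of the group's range on the CPM scale, above Dixon's critical value of 0.493 for 9 animals. In log2 CPM the values were 5.77 for this animal, 4.90 for the next and 3.44 for the lowest of the group. The flag was not examined on that scale. Very heavy drinker 1 also stood apart on the CPM scale among the 8 drinkers of cohort 1 (0.575 of the range, critical value 0.526). Its library had 14338548 counts, the lowest total among drinkers, of which 42.5% were mitochondrial, and its TH level was 25.7 CPM. Their part in its SNCG level was not tested. These were 2 flags among 40 groups examined, where chance flags about 1 in 20.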

How the results depend on the processing

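The count of 0 of the 8 transcripts past an adjusted p of 0.05 was the same in each of 72 refits over 7 comparisons. The counts over all transcripts moved more. Drinkers against controls had 0 calls by edgeR, 11 by DESeq2 and 5 in cohort 1 alone. The category test had 0 and 6 by DESeq2, very heavy drinkers against controls 0 and 22, and heavy drinkers against controls 0 and 48. The cohort comparison had 6 calls by edgeR and 121 by DESeq2, with 104 in drinkers alone, 18 with the pan-neuronal covariate, 3 with DESeq2's size factors, 4 without the filter, and 0 in controls alone, without control 11 or without very heavy drinker 1. The interaction had 2 and 157 by DESeq2, 4 without control 11, and 0 without control 9, without control 10 or with the pan-neuronal covariate. The slope on TH had 78 calls, 245 without the filter, 43 in drinkers alone, 25 in controls alone and 21 in cohort 2 alone.

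Directions changed only for changes that no test had called, and the cause was not tested. For drinkers against controls, cohort 1 alone gave log2 fold changes of 0.06 for PINK1, 0.01 for PARK7 and 0.26 for UCHL1, and cohort 2 alone gave -0.16 for VPS35 and -0.64 for LRRK2. LRRK2 was -0.06 with cohort as a covariate and -0.09 with only heavy and very heavy drinkers, where UCHL1 was 0.01, and UCHL1 was 0.05 in very heavy drinkers with cohort as a covariate. For the cohorts, controls alone gave 0.07 for SNCB, 0.12 for VPS35, 0.10 for UCHL1 and 0.13 for ATP13A2, and PINK1 was -0.01 by DESeq2 or with its size factors, -0.0029 without a covariate and -0.09 in drinkers alone. Slopes on TH were 0.01 for SNCB, 0.05 for SNCG and 0.0041 for VPS35 in cohort 2 alone, and -0.01 for PINK1 and 0.01 for VPS35 in drinkers alone. With the pan-neuronal marker level in place of TH, without and with covariates, slopes were 0.14 and 0.13 for SNCB, -0.07 and -0.07 for PARK7, -0.29 and -0.39 for LRRK2, 0.11 and 0.12 for VPS35 (edgeR p = 0.0349 and 0.0130, adjusted p = 0.405 and 0.241), and, with no change of sign, 0.21 and 0.22 for UCHL1 (edgeR p = 0.0589 and 0.0388, adjusted p = 0.498 and 0.380). An unadjusted p under 0.05 was held by 1479 and 1611 of 13762 transcripts in these refits. Pearson's r with TH was 0.136 for SNCB, 0.221 for SNCG and 0.0683 for VPS35 in cohort 2, -0.0484 for PINK1 and 0.110 for VPS35 in drinkers, and for LRRK2 -0.0714 in cohort 1, -0.190 in controls and -0.0957 without the 2 farthest animals.

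For heavy drinkers against controls, single heavy or binge drinkers were left out in turn, and no control was. The log2 fold change ranged from 0.09 to 0.40 for SNCG, -0.22 to -0.10 for PARK7 and -0.52 to -0.11 for ATP13A2. It ranged from -0.10 to 0.03 for PINK1 and -0.08 to 0.20 for UCHL1. For the cohort difference and the interaction, each of the 3 controls of cohort 2 was left out in turn. The cohort difference ranged from -0.78 to -0.44 for SNCG and -0.54 to -0.33 for UCHL1. For PINK1 it ranged from -0.04 to 0.01 and for ATP13A2 from -0.13 to 0.06. Without very heavy drinker 1, a refit outside these ranges, the cohort difference of SNCG was -0.30. The interaction ranged from -0.53 to -0.35 for VPS35, -0.95 to -0.28 for UCHL1, -1.02 to 0.14 for SNCG, -0.15 to 0.08 for PARK7 and -0.49 to 0.21 for ATP13A2, resting on 3 controls of cohort 2. Without mitochondrial transcripts the mean level of each of the 8 moved by more than its SD, from 715 to 1402 CPM for UCHL1 and from 7.42 to 14.7 CPM for LRRK2. The mitochondrial transcripts held 36.4% to 60.6% of the counts, and the levels without them were also not TMM-scaled. No paired analysis was possible because the sources used here do not say which drinker each caloric control was yoked to, and animals were numbered in accession order. Counts below about 100, as for LRRK2 in 12 animals, limit what can be shown.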

Other observations

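The zeros of LRRK2 were spread over categories of cohort 1, with 4 of 8 controls, 2 of 4 heavy drinkers, 1 of 3 very heavy drinkers and the low drinker listed at 0, and 0 of 12 animals of cohort 2. The split by cohort was noticed in the values and was not tested.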
